A study of Mus musculus with 4 samples.

Results

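The Hox cluster genes were taken as every name on the array that starts with Hoxa, Hoxb, Hoxc or Hoxd followed by a digit, whether or not a signal was measured. The rule found 40 members among the 31703 genes and other names on the array: 39 Hox genes and Hoxa11as, the RNA transcribed opposite Hoxa11, which RefSeq names Hoxa11os. They had 45 probes among 39418. The HoxA cluster on chromosome 6 held 12 members, HoxB on chromosome 11 held 10, HoxC on chromosome 15 held 9 and HoxD on chromosome 2 held 9.

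Hox genes encode homeodomain transcription factors that set position along the body axis. They lie in clusters in which the order of the genes matches the order of their expression domains, and members at the same place in different clusters form paralog groups, numbered from the 3′ end of the cluster. Silent Hox clusters are classical targets of Polycomb repressive complex 2, whose catalytic subunit Ezh2 methylates a lysine of histone H3, and the Trithorax-type methyltransferase Kmt2a (MLL) keeps active Hox genes active. In blood formation, genes of the HoxA cluster are known for expression in stem and early progenitor cells and for lower expression in maturing cells.

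Gene expression was measured in erythrocyte/megakaryocyte progenitors (MEP), the precursors shared by red cells and platelet-producing cells, on 4 one-colour Agilent arrays. One array each held MEP from the fetal liver (FL) of wild-type embryos at E14.5, from the fetal liver of Ezh2-null embryos at E14.5, from the bone marrow (BM) of wild-type adults and from the bone marrow of Ezh2-null adults, all on a C57BL/6 background. How Ezh2 was deleted (promoter or Cre driver, and which exons), how the cells were isolated and how many animals gave each RNA are not given in the sources used here. Each group was a single array, so its own spread is unknown; differences between a pair of arrays carry no p-value and were called at a 2-fold size (1 on the log2 scale).

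All 4 arrays shared 1 slide and 1 scan date. Levels are fluorescence intensities scaled to a common 75th percentile, and "well above background" is the scanner software's own call for a spot. A gene is called silent below where this call was not made on any array, which covers genes too dim to be measured at this sensitivity. Between 41.7% and 48.8% of all genes were well above background on each array. The array-wide correlation of log2 intensities was 0.982 between the bone marrow arrays and 0.915 to 0.937 for the other pairs. The single Ezh2 probe was brighter on the arrays labelled Ezh2-null, with levels of 33.5 (FL wild type), 194 (FL null), 35.4 (BM wild type) and 70.0 (BM null). Since the deleted part of the gene is not known here, the probe does not check the labels, and genotypes below are those of the labels.

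Most Hox genes were silent in these progenitors. On each fetal liver array 10 of 40 members (25%) were well above background, and on each bone marrow array 8 of 40 (20%). Over the 4 arrays 12 members passed this call at least once, 5 of them on every array, and 28 (70%) on none, against 44.3% of all genes on none. HoxA held 7 of the 12, HoxC 3 and HoxD 2, while 0 of 10 HoxB genes were well above background on any array.

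**Figure D1:**
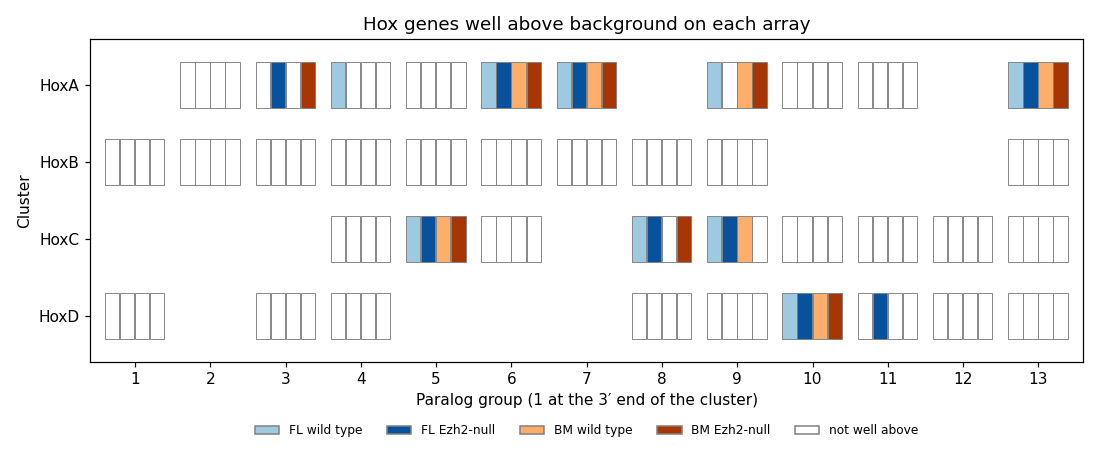
Hox genes reported by name, by cluster (rows) and paralog group (columns); each gene has 4 boxes, 1 per array, filled where the gene was well above background and white where it was not. HoxB is white throughout, HoxA is filled at groups 3, 4, 6, 7, 9 and 13, and Hoxa3 is filled on both null arrays only.

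By position, 2 of 12 members of paralog groups 1 to 4 passed the call at least once, 4 of 11 members of groups 5 to 8 and 6 of 17 members of groups 9 to 13. Of the 12 measured members, 5 were so on every array: Hoxa6, Hoxa7, Hoxa13, Hoxc5 and Hoxd10. The other 7 were missing from 1 or more arrays, and each had its own pattern except for Hoxa11as and Hoxc9, which were both missing from the BM null array alone.

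The silent HoxA members included Hoxa2, Hoxa5, Hoxa10 and Hoxa11. Hoxa10, like Hoxa9, is known as a regulator of blood stem and progenitor cells. All HoxB genes on the array were silent, Hoxb1 to Hoxb9 and Hoxb13, including Hoxb4, known for the expansion of blood stem cells. The silent HoxC members were Hoxc4, Hoxc6, Hoxc10, Hoxc11, Hoxc12 and Hoxc13. The silent HoxD members were Hoxd1, Hoxd3, Hoxd4, Hoxd8, Hoxd9, Hoxd12 and Hoxd13.

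On the FL null array 30 of 40 members were not well above background and on the BM null array 32. On both null arrays 29 members, the 28 silent genes and Hoxa4, were not well above background. Over all genes, 48.8% were well above background on the FL null array and 44.1% on the BM null array, against 25% and 20% of members. Of all genes 44.3% were silent on every array. Another 1.4% were well above background on the FL wild-type array only, 1.5% on the BM wild-type array only and 0.22% on both wild-type arrays only. Of the 30 members not well above background on the FL wild-type array, 2 (6.67%) were well above it on the FL null array, Hoxa3 and Hoxd11. Over all genes this share was 16.4%. Of the 32 members not well above background on the BM wild-type array, 2 (6.25%) were well above it on the BM null array, Hoxa3 and Hoxc8, against 7.45% of all genes.

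The intensities of the 28 silent members, as deposited, ran from 2.31 to 9.60 with a median of 2.80 on the FL wild-type array and from 2.56 to 12.8 with a median of 3.12 on the FL null array. They ran from 3.21 to 14.3 (median 3.83) on the BM wild-type array and from 2.65 to 11.5 (median 3.08) on the BM null array. The ranges of all 4 arrays overlapped. Hoxa11 and Hoxb1 were each printed 10 times per array, and 0 of these spots was well above background on any array. Their individual spots lay between 2.34 and 5.98 for Hoxa11 and between 2.42 and 11.5 for Hoxb1. For 12 of the 28 silent members no spot passed even the scanner software's looser call, positive and significant over background, on any array.

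Hoxa3, a gene known for patterning the pharyngeal arches and the thymus, was the member that differed between genotypes in both cell sources. Its scaled level was 11.7 on the FL wild-type array and 54.1 on the FL null array, 5.70 on the BM wild-type array and 54.2 on the BM null array. The scanner software's error of these levels was 4.79, 6.27, 2.64 and 5.91. Both null arrays were therefore above both wild-type arrays, and only the null arrays were well above background.

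The floor of an array is the lowest intensity that was well above background there. Set against the floor of the wild-type array, Hoxa3 on the null array was higher by at least 2.80-fold in fetal liver and by at least 4.88-fold in bone marrow. The ratios of the intensities themselves were 4.63 and 9.52. As deposited, before scaling, the intensities were 6.69 and 51.6 in fetal liver and 7.95 and 71.0 in bone marrow. With normexp background correction (offset 50) and quantile normalization, the log2 difference was 0.54 in fetal liver and 0.79 in bone marrow, both under 2-fold. This offset put the floors at 64.8 to 70.4 and shrinks the differences of dim genes. In bone marrow 0.81% of all genes compared were then at least 2-fold higher, against 4.54% as reported. The normexp values therefore cannot show whether the Hoxa3 difference depends on background correction.

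Presence on both null arrays and neither wild-type array was shared by 340 genes, 1.07% of all genes on the array, and by 1 of 40 members. Of these 340 genes, 35 had a bound of 2-fold or more in both sources, 13 were at least as much higher as Hoxa3 in bone marrow, and 5 were so in both sources. Among the 13868 genes compared in both sources, 133 (0.959%) had a null level 2-fold or more above the wild-type level in both, and 1 of them was a Hox member.

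The Hoxa3 probe lay on chromosome 6, minus strand, chr6:52119087-52119146 in build mm9, starting at base 2457 of the transcript. Another probe of the array, which the files name only by an Ensembl transcript, lay on the plus strand at chr6:52119107-52119166 and shared 40 positions with it. The 30 shared bases at chr6:52119117-52119146 are shown because these probes read opposite strands of one stretch; each is written 5′ to 3′ as on the probe.
Hoxa3 probe: gctagatttgttttgagagttttacattcc
opposite-strand probe: ggaatgtaaaactctcaaaacaaatctagc
Over all 40 shared positions the probes were exact reverse complements of each other. RefSeq (GRCm38.p6) lists a long non-coding RNA gene, Hoxaas2, that covers the 3′ end of Hoxa3; the files do not name the probe after it.

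The opposite-strand probe had the same pattern of detection as Hoxa3. Its scaled level was 11.6 on the FL wild-type array, 18.5 on the FL null array, 2.26 on the BM wild-type array and 13.5 on the BM null array, with errors of 4.11, 3.31, 2.25 and 2.52. It was well above background on the null arrays only. In fetal liver the null level did not exceed the floor of the wild-type array, so no fold can be given; in bone marrow it was at least 1.21-fold higher, under the 2-fold size.

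**Figure D2:**
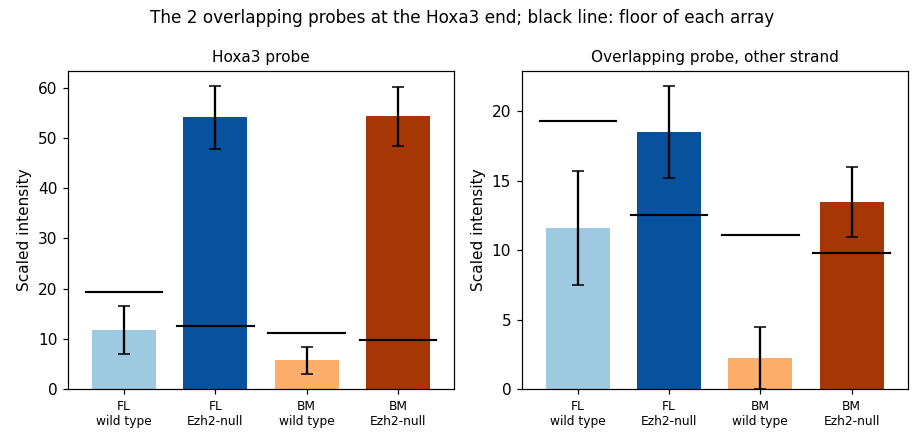
Scaled intensity (y axis, from 0, a scale of its own in each panel) of the Hoxa3 probe and of the overlapping probe for the other strand on the 4 arrays (x axis); error bars are the scanner software's error of the spot and black lines the floor of each array. Hoxa3 stands at 54.1 and 54.2 on the null arrays and below the floor on the wild-type arrays, and the other probe passes its floor on the null arrays only.

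Of 16 probes inside the clusters that belong to no member, 4 passed the background call at least once and 3 on every array. Only the opposite-strand probe at Hoxa3 was so on both null arrays alone. The antisense and non-coding genes Hoxaas3, Hoxb5os and Hoxd3os1, named here through RefSeq, were not well above background on any array.

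Many Hox promoters are rich in CpG dinucleotides, and Polycomb complexes are known to bind CpG-rich promoters. RefSeq promoter windows of 300 bases (GRCm38.p6, 250 before and 50 after the start) were available for 23 members in 25 windows. They held a median of 15 CpG (range 4 to 45), against 7 in all 32851 windows, and 72% held at least 10 against 43.5% of all windows. The 9 windows of members measured on 1 or more arrays had a median of 22 CpG and the 16 windows of silent members 13.5, and the ranges overlapped. The share with at least 10 CpG ran the other way, 66.7% and 75%. The annotated start of Hoxa3 used for its window lies between those of Hoxa6 and Hoxa7. The Hoxa3 probe, in contrast, lies between the probes of Hoxa2 and Hoxa4.

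The 250 bases before the start are shown for a silent gene, Hoxa2, for Hoxa3, and for Hoxa7, whose annotated start lies next to Hoxa3's. All lie on the minus strand of chromosome 6, at chr6:52164832-52165081, chr6:52213068-52213317 and chr6:52218574-52218823 in GRCm38.p6, and capitals mark each CG.
Hoxa2: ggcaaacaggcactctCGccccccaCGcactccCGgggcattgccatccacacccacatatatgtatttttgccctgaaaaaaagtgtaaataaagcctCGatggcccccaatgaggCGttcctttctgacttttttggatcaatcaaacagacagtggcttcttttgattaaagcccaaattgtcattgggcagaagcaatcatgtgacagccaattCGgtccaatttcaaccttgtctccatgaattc
Hoxa3: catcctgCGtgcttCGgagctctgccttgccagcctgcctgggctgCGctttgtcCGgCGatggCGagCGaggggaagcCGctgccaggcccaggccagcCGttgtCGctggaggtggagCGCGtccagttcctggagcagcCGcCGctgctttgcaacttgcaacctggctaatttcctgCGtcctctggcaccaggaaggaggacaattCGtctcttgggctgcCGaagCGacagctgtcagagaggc
Hoxa7: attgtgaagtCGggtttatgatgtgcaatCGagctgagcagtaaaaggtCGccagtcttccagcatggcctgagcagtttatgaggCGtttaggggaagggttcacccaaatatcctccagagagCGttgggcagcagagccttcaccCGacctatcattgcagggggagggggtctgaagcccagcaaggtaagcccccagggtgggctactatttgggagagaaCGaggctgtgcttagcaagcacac
Hoxa2 had 6 CG in these bases, Hoxa3 18 and Hoxa7 7. The counts of Hoxa7, measured on every array, and of Hoxa2, measured on none, were thus alike.

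The other HoxA members gave no such pattern. Hoxa4 was well above background on the FL wild-type array only, at 25.6, with 9.84 on the FL null array, 8.21 on the BM wild-type array and 7.94 on the BM null array. Hoxa6 was well above background on all arrays, at 75.4 (FL wild type), 27.6 (FL null), 18.5 (BM wild type) and 22.0 (BM null). Both were highest on the FL wild-type array, and the other 3 arrays lay close together.

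Hoxa7, known for expression in early blood progenitors, had levels of 116 (FL wild type), 91.4 (FL null), 46.0 (BM wild type) and 55.5 (BM null). Hoxa9, a gene of blood stem cell self-renewal and of leukaemia, had levels of 21.7, 6.56, 16.0 and 10.6 in the same order, and was not well above background on the FL null array. Hoxa9 was the 1 measured HoxA gene whose lowest array after scaling was the FL null array.

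Hoxa13, which shapes the digits and the genital tract, had levels of 299 (FL wild type), 184 (FL null), 112 (BM wild type) and 135 (BM null) for its brighter probe. As deposited, that probe gave 171.7, 175.3, 156.0 and 176.1, so the highest array was 1.13 times the lowest before scaling and 2.68 times after it. The wild-type order was the same before and after, and that of the null arrays was not. A second Hoxa13 probe, well above background on all arrays, gave scaled levels of 30.7, 28.8, 13.1 and 12.4. Hoxa11as had levels of 27.7, 22.8, 13.3 and 10.1, the last of them not well above background, while Hoxa11 on the opposite strand was silent.

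In HoxC, Hoxc5 had levels of 68.6 (FL wild type), 40.5 (FL null), 32.0 (BM wild type) and 39.5 (BM null), all well above background. Hoxc8, which acts in the thoracic and brachial spinal cord, had 27.3, 22.1, 11.6 and 11.9, and was not well above background on the BM wild-type array. Hoxc9, a gene of thoracic identity, had 36.1, 30.9, 13.4 and 8.28, and was not well above background on the BM null array. The HoxC genes were brightest on the FL wild-type array after scaling. As deposited, Hoxc8 and Hoxc9 were brightest on the FL null array and Hoxc5 on the BM null array.

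In HoxD, Hoxd10, which acts in the lumbar spinal cord and the limb, had levels of 31.7 (FL wild type), 21.5 (FL null), 12.0 (BM wild type) and 14.2 (BM null), all well above background. Hoxd11, which acts in the limb and the kidney, was well above background on the FL null array only, at 16.1. Its levels on the other arrays were 20.8, 9.84 and 9.61. Since the FL wild-type level of Hoxd11 was the higher one but not well above the background of its array, no difference can be given in fetal liver.

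**Figure D3:**
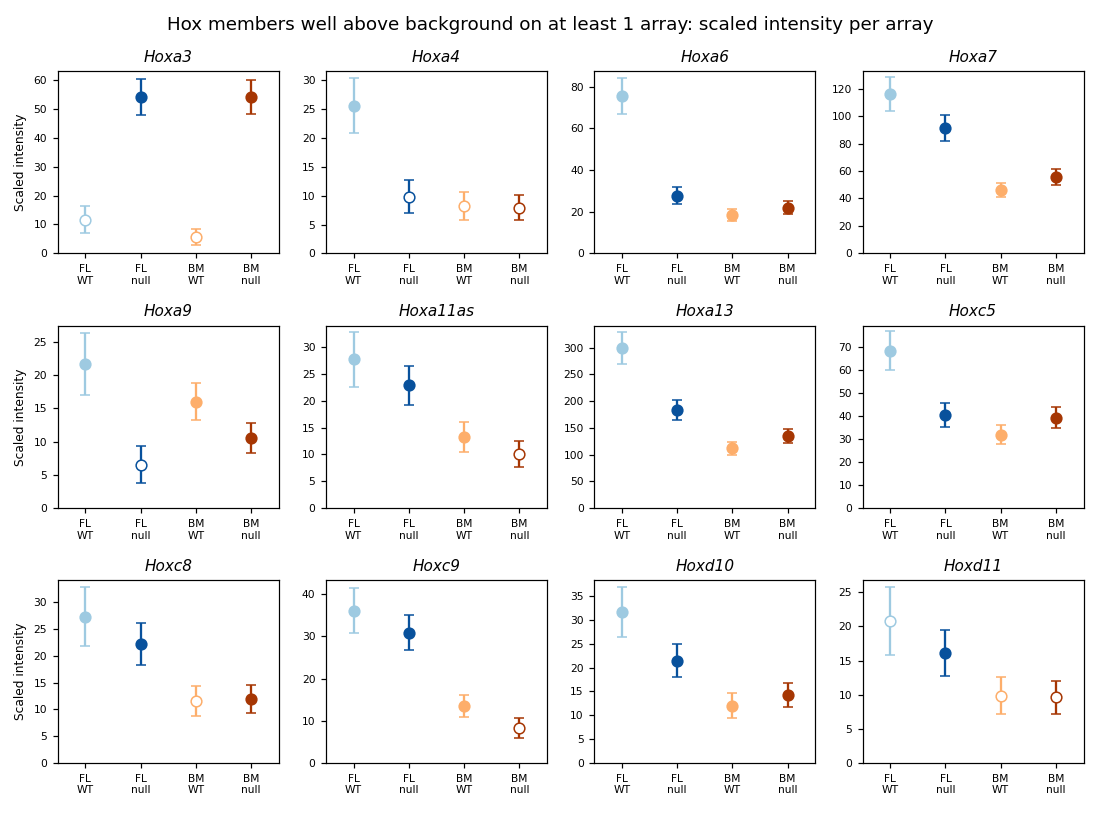
Scaled intensity (y axis, from 0, a scale of its own per gene) of the 12 Hox members measured on 1 or more arrays, for the 4 arrays (x axis); filled points were well above background, open points were not, and bars are the scanner software's error of the spot. Hoxa3 is high on both null arrays, and the other members are highest on the FL wild-type array after scaling. In the intensities as deposited, only Hoxa4 and Hoxa6 of these other members were highest on that array.

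In fetal liver the null array was compared with the wild-type array for 12 members, those above background on either array of the pair. At least 2-fold higher was 1 of them, Hoxa3, against 15.4% of the 16257 genes compared. By its bound Hoxa3 lay here among 1531 genes (9.42%) at least this much higher. At least 2-fold lower were 2: Hoxa4, by at least 2.04-fold, and Hoxa6, by 2.73-fold, against 13.5% of all genes. The median log2 difference was −0.45 over the members and −0.14 over all genes. The differences of Hoxa4 and Hoxa6 were under 2-fold with normexp (−0.31 and −0.68) and without scaling (−0.29 and −0.72). The offset of normexp shrinks the differences of dim genes, here and below.

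The share of higher genes among those called depended on the scaling. It was 53.3% as reported, 41.4% with the percentile taken over all probes, 65.8% with normexp and 91.0% without scaling. Without scaling the median of all genes was 0.51 on the log2 scale. Hoxa3 was at least 2-fold higher under each of these settings except normexp.

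In bone marrow 10 members were compared. Hoxa3 was the 1 member at least 2-fold higher, against 4.54% of the 15279 genes compared, and 0 members were at least 2-fold lower, against 7.74% of all genes. By its bound Hoxa3 lay among the 98 genes (0.641%) at least this much higher. The other 9 members lay between −0.60 (Hoxa9) and 0.30 (Hoxc5) on the log2 scale. The median was 0.25 over the members and −0.03 over all genes. The share of higher genes among those called was 37.0% as reported and 51.7% with normexp.

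A comparison by genotype was possible for 10 members in both sources. Both differences were above 0 for Hoxa3 alone. Hoxa6, Hoxa7, Hoxa13, Hoxc5 and Hoxd10, measured on all 4 arrays, were lower on the null array in fetal liver (−1.45, −0.35, −0.70, −0.76 and −0.56 on the log2 scale) and slightly higher in bone marrow (0.25, 0.27, 0.27, 0.30 and 0.24). The bone marrow values of these 5 genes thus all lay between 0.24 and 0.30, and their fetal liver values spread more widely. The opposite signs rested on the scaling for most of them: without it the fetal liver values were −0.72 (Hoxa6), 0.39 (Hoxa7), 0.03 (Hoxa13), −0.03 (Hoxc5) and 0.17 (Hoxd10). With the percentile over all probes, quantile normalization or normexp all 5 were below 0 in fetal liver and above 0 in bone marrow. These values rest on the brighter Hoxa13 probe. The second Hoxa13 probe was slightly lower on the null array in both sources, at 30.67 and 28.77 in fetal liver and 13.05 and 12.43 in bone marrow (wild type and null).

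**Figure D4:**
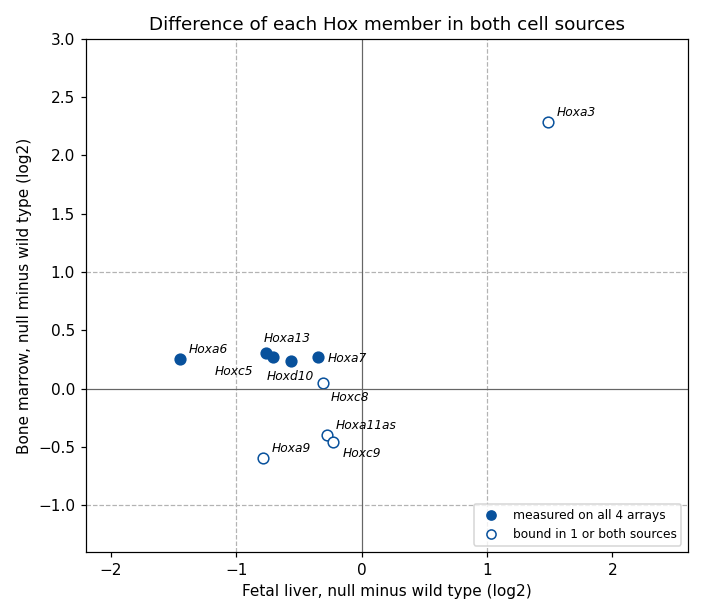
Log2 difference of null minus wild type in fetal liver (x axis) and bone marrow (y axis) for the 10 members compared in both sources; filled points were measured on all 4 arrays, open points rest on a floor in at least 1 source, and dashed lines mark 2-fold. Hoxa3 lies past 2-fold on both axes, at 1.49 and 2.29, and Hoxa6 lies past it in fetal liver only.

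Between the wild-type sources, 9 of the 10 members compared were at least 2-fold lower in bone marrow than in fetal liver, and 0 were higher, against 31.9% and 13.1% of the 15382 genes compared. The largest difference was that of Hoxa6 (4.09-fold lower) and the exception was Hoxa9 (−0.44 on the log2 scale). The median was −1.29 over the members and −0.58 over all genes. This count rested on the scaling. With the percentile over all probes 4 members were lower (15.2% of all genes compared), and with quantile normalization 3 (17.1%). With normexp 1 was lower (5.59% of all genes), and without scaling 0 (2.3%). As deposited, the highest array was 1.13 to 1.68 times the lowest for the 5 members measured on every array, and after scaling 2.14 to 4.09 times.

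The share of higher genes among those called between the wild-type sources was 29.1% as reported. It was 54.9% with the percentile over all probes, 49.6% with quantile normalization, 59.1% with normexp and 94.4% without scaling. Between the null sources 0 of 11 members were higher in bone marrow, against 10.5% of all 16688 genes compared. Lower were 2 of 11, Hoxa11as by at least 2.27-fold and Hoxc9 by at least 3.15-fold, against 27.1% of all genes. The log2 difference of Hoxa3 between the null sources was 0.00 with the scaling used, but 0.63 with the percentile over all probes, 0.58 with quantile normalization, 0.27 with normexp and 0.46 without scaling. The share of higher genes was 27.9% there, 64.2% with the percentile over all probes, 50.6% with quantile normalization, 41.3% with normexp and 54.8% without scaling.

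An additive limma fit over the 4 arrays, with source and genotype as terms, has 1 residual degree of freedom per gene. It called 0 of 16250 genes (0%) for genotype and 0 (0%) for source at an adjusted p under 0.05, and so 0 of the 12 Hox members tested. At an unadjusted p under 0.05, limma gave 276 genes for genotype, 1 of them a member, and 2644 for source, 0 of them members. That member was Hoxa3, with a limma genotype coefficient of 1.49 on the log2 scale (SE 0.40, Benjamini-Hochberg adjusted p = 0.995 in limma). Values under the highest array floor were set to it in this fit.

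Hox proteins bind DNA with cofactors of the TALE homeodomain class. Of the 9 cofactors listed, 5 passed the background call at least once, against 55.7% of all genes, and Meis1, Meis2, Pbx3 and Pknox2 did not. In fetal liver 1 of 5 had a null level 2-fold or more above wild type and 0 were lower, against 15.4% and 13.5% of all genes. In bone marrow 0 of 5 were higher and 2 lower, against 4.54% and 7.74% of all genes. Pknox1 was 5.46-fold higher in fetal liver (146 against 797) and 3.13-fold lower in bone marrow (370 against 118.5); a second Pknox1 probe was not well above background on any array. Pbx4 was 2.83-fold lower in bone marrow, from 94.0 to 33.2.

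Among the regulators of Hox genes, 5 of 7 of the MLL, demethylase and related group passed the background call at least once, against 55.7% of all genes. Kdm6a and Kdm6b, which remove the mark set by Ezh2, were not well above background on any array. Kmt2a had a level of 504 on the FL wild-type array and 93.1 on the FL null array, 5.41-fold lower, and of 13.3 and 7.75 on the bone marrow arrays. Psip1, a chromatin factor that binds MLL complexes, was higher by at least 4.42-fold on the FL null array and at least 3.02-fold lower on the BM null array. Its other probe gave 54.2 and 104.5 in fetal liver, under 2-fold, and was not well above background in bone marrow. Ash1l, another Trithorax-type methyltransferase, was higher by at least 3.07-fold on the FL null array.

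Of the caudal and ParaHox genes, which act upstream of or beside the Hox clusters, 2 of 6 passed the background call at least once. Over all genes this share was 55.7%. Only 2 of these 6 genes could be compared between genotypes in fetal liver and 1 in bone marrow, and 0 were 2-fold apart. Over all genes compared, 15.4% were higher and 13.5% lower in fetal liver, and 4.54% higher and 7.74% lower in bone marrow. Evx1 and Evx2, homeobox genes at the ends of HoxA and HoxD, were silent.

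Of 19 genes on the array that flank the clusters, 13 passed the background call at least once, against 12 of 40 members inside them and 55.7% of all genes. In fetal liver 3 of 12 compared were higher on the null array by 2-fold or more, Hnrnpa1 (2.55-fold), Mtx2 (2.52-fold) and Lnpk (at least 2.25-fold), and 2 were lower, Snx11 (2.15-fold) and Cbx5 (2.77-fold). In bone marrow 0 of 12 were higher and 3 were lower, Hibadh (2.18-fold), Lnpk (from 20.5 to 10.2) and Cbx5 (at least 5.05-fold). Over all genes compared, 15.4% were higher and 13.5% lower in fetal liver, and 4.54% higher and 7.74% lower in bone marrow. The 2 Cbx5 probes disagreed in fetal liver, the other one giving 11.3 on the wild-type array and 86.7 on the null array. The Snx11 probes disagreed there too. Both other Snx11 probes were brighter on the FL null array, at 73.12 and 21.12 and well above background. Neither was well above background on the FL wild-type array. None of the flanking genes compared reached 2-fold higher on the null array in both sources; Mtx2 was 1.09-fold higher in bone marrow.

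Markers of the labelled cell type were present. Of 12 genes listed for MEP, erythroid cells and megakaryocytes, 12 passed the background call at least once and 10 or 11 on each array, with a summed level of 50350 on the FL wild-type array and between 12990 and 19260 on the others. Some of them moved with genotype in opposite directions in the sources. Others did not: Gfi1b (−0.35 in fetal liver and −0.34 in bone marrow on the log2 scale) and Nfe2 (−0.35 and −0.33) were slightly lower on both null arrays. In fetal liver 3 of 11 compared were at least 2-fold lower on the null array, the haemoglobin gene Hba-a1 (from 32860 to 6575), the haem synthesis enzyme Alas2 (2.97-fold) and the erythropoietin receptor Epor (2.34-fold), and 0 were higher. In bone marrow 4 of 11 were at least 2-fold higher, Hba-a1 (8.89-fold), the platelet gene Pf4 (3.18-fold), the erythroid factor Klf1 (3.17-fold) and Alas2 (2.42-fold), and 0 were lower. Over all genes compared, 13.5% were lower and 15.4% higher in fetal liver, and 7.74% lower and 4.54% higher in bone marrow. Of 6 multipotent progenitor markers only Kit was well above background. Kit was 3.77-fold higher on the FL null array (96.0 against 362.5). In bone marrow it was 1.43-fold lower on the null array (413.8 against 289.8), under the 2-fold size. Flt3, Cd34, Meis1, Hlf and Mecom were not well above background on any array. Several Hox genes are known from these earlier, multipotent progenitors. In bulk RNA, fewer cells of a type and less RNA per cell cannot be told apart.

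Some lymphoid markers moved with the bone marrow genotype. Of 6 lymphoid genes 4 passed the background call at least once, and 3 were higher by 2-fold or more on the BM null array, Vpreb1, Dntt and Cd79a, against 4.54% of all genes; Pax5 was not (−0.19 on the log2 scale). Vpreb1, part of the pre-B cell receptor, had levels of 91.5, 2.80, 10.6 and 2202 on the FL wild-type, FL null, BM wild-type and BM null arrays. Dntt, the template-independent polymerase of lymphoid precursors, had 35.0, 26.0, 76.6 and 1381 in the same order. The summed lymphoid level was 296 and 150 in fetal liver and 186 and 3699 in bone marrow, in the order wild type and null, and Vpreb1 and Dntt made up most of the last sum. Il7r and Rag1 were not well above background on any array.

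Of 7 granulocyte and macrophage markers 4 passed the background call at least once, with sums of 6666 (FL wild type), 12970 (FL null), 5389 (BM wild type) and 4811 (BM null), of which Csf3r alone gave 6104, 12440, 4848 and 4348. Csf3r was 2.04-fold higher on the FL null array, while Csf1r, Prtn3 and Mpo lay between −0.63 and −0.05 on the log2 scale there. Elane, Ctsg and Lyz2 were not well above background on any array. Of 4 hepatocyte markers only Apoa1 was, with list sums of 83.8, 33.1, 18.8 and 20.2 in the same order; Alb, Afp and Ttr were not. Of 6 stromal and endothelial markers 3 were, with sums of 352, 237, 162 and 155, and Col1a1, Pdgfra and Cdh5 were not. The part of other cell types in the Hox values was not tested.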

How the data were processed

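Total RNA (250 ng per sample) was amplified and labelled with Cy3, per the labels' protocols. The deposited values are fluorescence intensities, background-subtracted processed signals made by the authors with Agilent Feature Extraction 10.7.3.1 (protocol GE1_107_Sep09, build mm9), per the file headers. The deposited series table gives the same intensity values to within 0.496%; its column medians were 7.05, 10.8, 10.3 and 8.63. No spot was saturated, and 95 to 135 spots per array with an outlier flag were left out.

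Each array was divided by a 75th percentile, taken over 12880 probes that passed the scanner software's background call everywhere, and brought to a common scale by factors of 1.74, 1.05, 0.716 and 0.764 (FL wild type, FL null, BM wild type, BM null). Spots of a probe were averaged on the log2 scale. The probe with the highest mean stood for a gene, and the background call of a gene was the call of that probe. For the Hox members, a call from any of their probes gave the same result. A difference with 1 array under background is a bound against the higher of that array's floor (19.3, 12.6, 11.1 and 9.80) and the probe's own signal. Scripts ran in Python 3.11.15 (pandas 2.3.3, numpy 2.4.6) and R 4.3.3; limma 3.58.1 gave the additive fit (lmFit, eBayes, Benjamini-Hochberg), in which genes at the floor on all 4 arrays were left out because they have no variance. The number of arrays, 1 per group, limits precision; spots printed repeatedly on an array had a median SD of 0.0751 to 0.143 on the log2 scale.

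Names came from the files; RefSeq (GRCm38.p6) updated symbols and gave promoters. Members, lists and tests were chosen with earlier results of these data known. Every member is counted, and 1 is not reported by name here; those measured on any array are given with their levels. Of the partner, regulator and flanking lists, genes 2-fold apart between genotypes are named. Of 7 non-coding RNAs listed for the clusters, 0 were found on the array by those names. Alternatives were 2 other scalings, normexp (offset 50) with quantile normalization, other detection calls and probe rules, the series table, and, chosen after seeing the data, no scaling.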

Additional observations from a re-analysis of the deposited data

Results flagged for a closer look

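Hoxa6 is given here because its difference between null and wild type had opposite signs in the 2 cell sources: −1.45 on the log2 scale in fetal liver and 0.25 in bone marrow, a gap of −1.70. With 1 array per group the gap was not tested. It was −0.72 with normexp, −0.88 without scaling, −1.97 with the percentile over all probes and −2.08 with quantile normalization.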

How the results depend on the processing

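With detection by the looser positive-and-significant call, 24, 24, 25 and 22 members (FL wild type, FL null, BM wild type, BM null) counted as detected; members 2-fold apart then numbered 6 of 24 lower in FL null (17.9% of all genes), 2 of 26 higher and 4 of 26 lower in BM null (7.19% and 12.6%), 14 of 25 lower in BM wild type against FL wild type (39.1%) and 8 of 26 lower in BM null against FL null (33.5%). With normexp the counts were 0 higher (8.23% of all genes) and 0 lower (4.28%) in FL null and 0 higher (0.81%) in BM null. Lower in BM than in FL with normexp were 1 in wild type (5.59% of all genes) and 0 in null (8.2%). Without scaling 0 were lower in FL null (2.99% of all genes). Lower in BM than in FL were then 0 in wild type (2.3% of all genes) and 1 in null (15.3%). Hoxa11as (0.22) and Hoxc5 (0.18) reversed between the wild-type sources without scaling. With the percentile over all probes 4 in wild type (15.2% of all genes) and 1 in null (12.7%) were lower in BM. With quantile normalization 3 in wild type (17.1% of all genes) and 0 in null (15.4%) were. Fewer genes enter where only genes well above background on both arrays were compared. FL null then had 0 higher (12.6% of all genes) and 1 lower (13.8%), and BM null had 0 higher (3.34%). BM null against FL null had 0 lower (22.7% of all genes). The other alternatives (probe nearest the 3′ end, mean of probes, outlier spots kept, series table) kept every count of members within 1.5 times of the one reported.

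The limma fit called no Hox member under any alternative. Over all genes it called 8 for genotype and 957 for source with the percentile over all probes, 0 and 78 with quantile normalization, and 1 and 272 over genes well above background on all 4 arrays, against 0 and 0 as reported. No paired analysis was possible because each group has 1 array, and leaving out an array leaves no residual. Levels near each array's floor limit what can be said of the dim members, and the cause of the changes with scaling was not tested.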
